A study of Bos taurus with 48 samples.

Results

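The measurements were the growth diet channels of 8 Agilent bovine arrays, which are 8 of the 96 channels of the series. They hold LTL muscle RNA of 4 Belmont Red cattle, RG166, RG604, RG157 and RG208, each biopsied once at diet time 0 and once at diet time 1. Members were chosen by the labels alone, as the channels labelled with the growth diet at these times, and were paired by animal code. Belmont Red is an Australian composite beef breed, and LTL is the long muscle of the back. The labels give neither the unit of diet time nor the age of the cattle. The other channel of each of the 8 arrays held a Belmont Red animal on the weight loss diet, called restricted below, from 4 animals at time 0 and 3 animals at time 1, since RL24 was on 2 arrays at time 1. All time 0 arrays lay on 1 slide and all time 1 arrays on another, so diet time and slide cannot be told apart in the growth channels. The labels do not record how the 2 diets were fed or whether time 0 preceded the diets.

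Each animal changed dye between the times. RG166 and RG208 went from Cy5 to Cy3, and RG604 and RG157 from Cy3 to Cy5. Between 58.7% and 73.6% of spots were well above background in a growth channel (median 65.6%), and 0 to 7 spots per channel were saturated. The share was lower at time 0 in both dyes, with 58.7% to 61.8% in Cy3 and 65.0% to 68.0% in Cy5, against 64.3% to 66.2% and 72.7% to 73.6% at time 1. Values below are normalised log2 intensities of a gene, where a difference of 1 is a doubling of signal, and they rank samples for 1 gene, not genes against each other. All 8 skeletal muscle fibre markers tested, ACTA1, CKM, DES, MB, MYH1, MYH7, TNNT3 and TTN, were measured, with a mean log2 intensity of 16.21 to 16.64 in the animals at time 0 and 16.76 to 17.58 at time 1. In bulk muscle, fewer cells of a type and less RNA per cell cannot be told apart.

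Skeletal muscle is built of slow fibres, which burn fuel by respiration, and fast fibres, which lean on glycolysis and glycogen. Immediate early genes encode transcription factors and feedback inhibitors that are switched on within a short time by stretch, contraction, injury or hormones, without new protein synthesis. Heat shock proteins keep other proteins folded, and glucocorticoids are steroid hormones that act on muscle through a nuclear receptor.

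Of 13710 genes tested, 11 fell and 5 rose from time 0 to time 1 at an adjusted p under 0.05 (limma, animal as block, dye as covariate, 2-sided, Benjamini-Hochberg), which is 0.0802% and 0.0365% of the genes. At an unadjusted p under 0.05, 1157 genes were lower (8.44%) and 1850 were higher (13.5%), and at an adjusted p under 0.10 these were 182 (1.33%) and 340 (2.48%). The counts of list members at an unadjusted p under 0.05 below stand beside 8.44% lower and 13.5% higher, unless another scaling is named. The falls were led by ANKRD2, TNFRSF12A, PTX3 and PPP1R15A and were 2.44-fold (MAFF) to 8.40-fold (ANKRD2) in size, and the rises were led by LUM and were 2.65-fold (PCDH12) to 4.45-fold (LUM). All 16 genes changed in the same direction in all 4 animals, and in 11 of them the values of the 2 times did not overlap, 4 higher and 7 lower, against 7.45% and 3.66% of all genes. Both counts were taken on the values that gave the calls, so they describe the 16 genes and support no test. The next gene after the threshold was TOP2A, a topoisomerase of dividing cells, at 1.43 ± 0.12 (SE) and adjusted p = 0.0501 in limma.

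The number of calls depended on the fit and on single animals. Without the animal block 40 genes were called, 30 of them higher, and 6 of the 16 were among them. With 3 animals and 1 residual degree of freedom, limma called 0 genes without RG166, without RG157 and without RG208, and 14 without RG604, 4 of them shared with the 16. In these fits 1456, 3338, 1582 and 3382 genes had an unadjusted p under 0.05. Background subtraction gave 66 rises and 53 falls, quantile normalization of all channels 41 and 38, median centring without loess 179 and 549 and the processed signals of Feature Extraction 391 and 312, and all 16 genes were called under each of these.

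**Figure D1:**
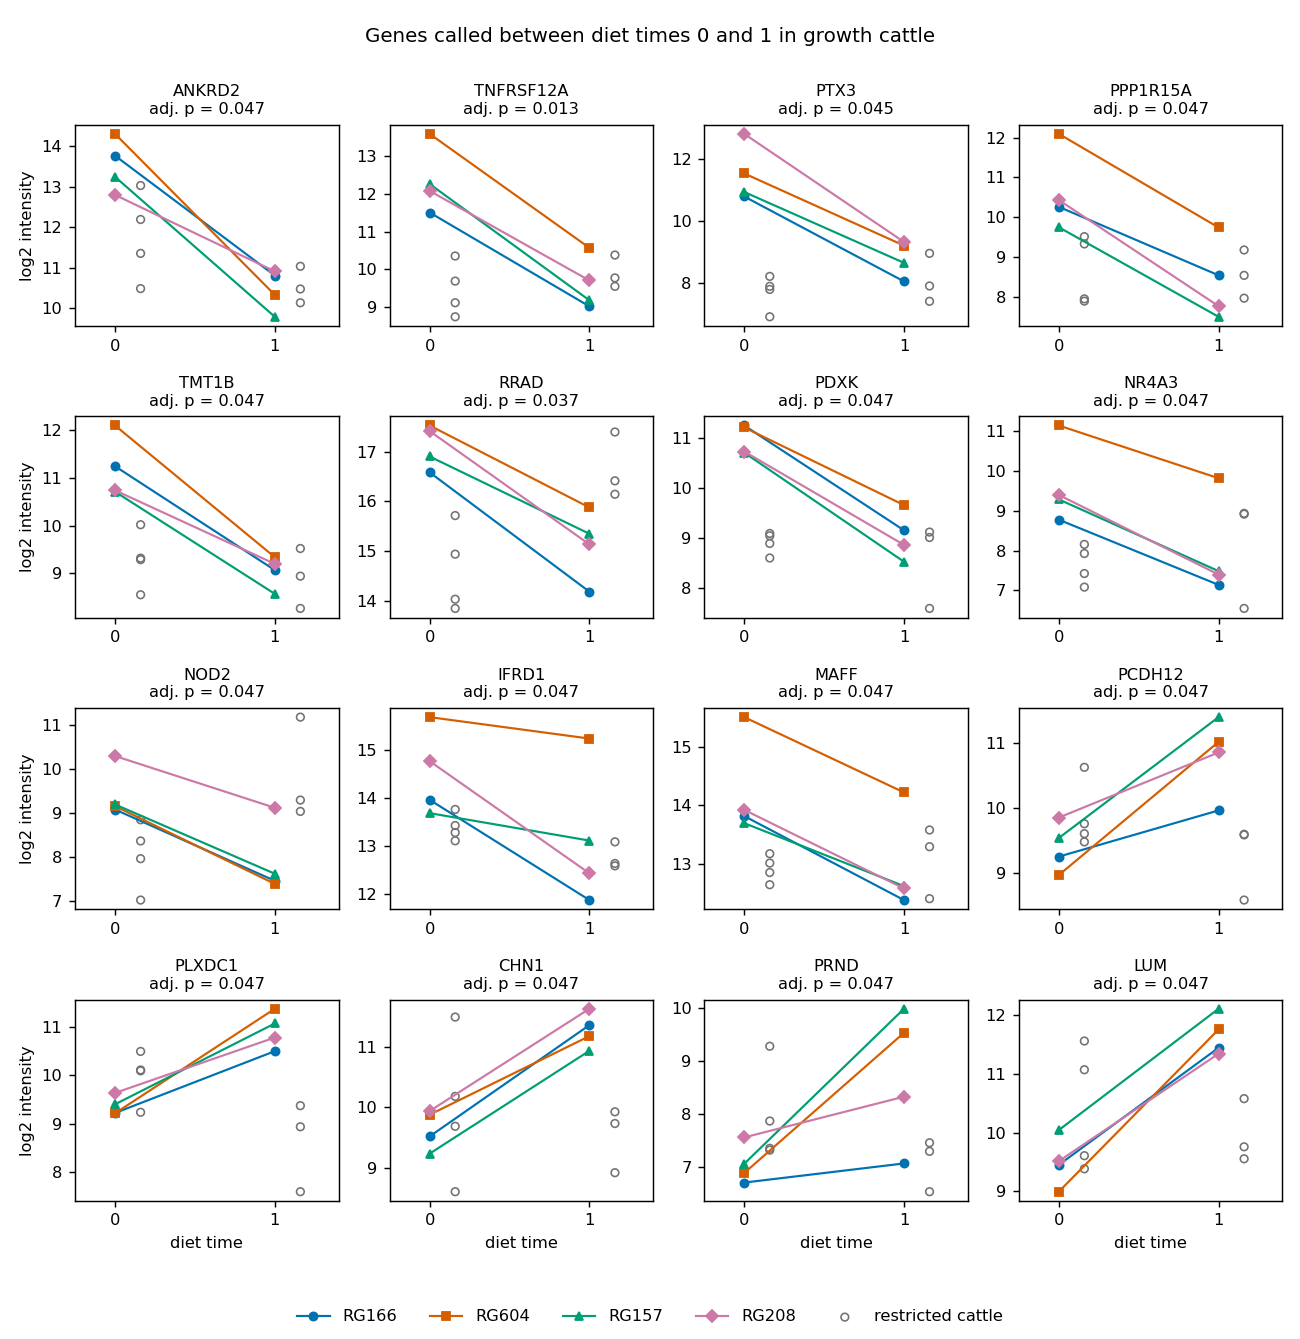
Normalised log2 intensity (y axis) at diet times 0 and 1 (x axis) of the 16 genes called in growth cattle, ordered from the largest fall to the largest rise. Coloured lines join the 2 samples of an animal, grey circles are restricted cattle on the same slides, and the title gives the limma adjusted p. Every line of ANKRD2 falls by 1.89 or more and every line of LUM rises by 1.82 or more.

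ANKRD2, a muscle ankyrin repeat protein of the sarcomere that responds to stretch, had the largest fall. Its log2 intensity was 13.76 in RG166, 14.30 in RG604, 13.24 in RG157 and 12.80 in RG208 at time 0, and 10.81, 10.33, 9.79 and 10.91 in the same order at time 1. The groups did not overlap, and the mean change was -3.07 ± 0.21 (SE of the limma fit, 4 animals, limma adjusted p = 0.047). The ± values of growth changes in this report are SEs of that fit, taken after the animal and dye terms. They do not measure the spread of the changes over the animals. For ANKRD2 the SD of the 4 changes was 0.89. TNFRSF12A, the receptor of the cytokine TWEAK, was 11.51, 13.60, 12.27 and 12.08 at time 0 and 9.01, 10.57, 9.17 and 9.70 at time 1. RG604 was the highest animal at both times, and all 4 animals fell by a similar step, so that this gene had the smallest adjusted p (-2.75 ± 0.10, limma adjusted p = 0.013). It was also the one gene called when dim probes were not filtered out.

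PTX3, a secreted pattern recognition protein of innate immunity, was 10.78, 11.53, 10.93 and 12.81 in RG166, RG604, RG157 and RG208 at time 0 and 8.04, 9.20, 8.64 and 9.31 at time 1. RG208 was highest at both times, and the fall was 2.29 or more in each animal (mean -2.71 ± 0.15, limma adjusted p = 0.045). RRAD, a small GTP-binding protein that inhibits calcium channels, went from 16.58, 17.52, 16.90 and 17.41 to 14.19, 15.88, 15.35 and 15.14. No time 1 value reached the lowest of time 0 (-1.97 ± 0.10, limma adjusted p = 0.037). PPP1R15A, which directs the phosphatase that ends the stress block on protein synthesis, was 10.26, 12.09, 9.75 and 10.44 at time 0 and 8.55, 9.75, 7.51 and 7.78 at time 1. Here the values of RG604 at time 1 and RG157 at time 0 lay next to each other without overlap, and the mean change was -2.24 ± 0.18 (limma adjusted p = 0.047).

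The other 6 genes that fell had an adjusted p of 0.047. TMT1B, a methyltransferase, fell by 2.15 and PDXK, the kinase that makes active vitamin B6, fell by 1.92, without overlap between the times. NR4A3, an orphan nuclear receptor of the immediate early class, fell by 1.69, NOD2, a cytosolic sensor of bacterial wall fragments, by 1.53, and MAFF, a small MAF transcription factor, by 1.29. In these 3 genes 1 animal was high at both times, RG604 for NR4A3 and MAFF and RG208 for NOD2, so the times overlapped although every animal fell by 1.08 or more. IFRD1, a co-regulator of muscle differentiation, fell by 1.36, with -2.08 and -2.33 in RG166 and RG208 and -0.45 and -0.57 in RG604 and RG157. That split follows the dye change of the animals, and IFRD1 was not called without the dye term.

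Among the rises, LUM, the small leucine-rich proteoglycan lumican that spaces collagen fibrils, was 9.45, 9.0, 10.04 and 9.51 in RG166, RG604, RG157 and RG208 at time 0 and 11.44, 11.75, 12.10 and 11.34 at time 1. All time 1 values were above all time 0 values (2.15 ± 0.15, limma adjusted p = 0.047). CHN1, a GTPase-activating protein for Rac, rose from 9.52, 9.88, 9.24 and 9.94 to 11.36, 11.18, 10.93 and 11.63 (1.63 ± 0.12), and its 4 changes lay between 1.30 and 1.84. PLXDC1, a transmembrane protein of tumour and other vessel endothelium, rose from 9.22, 9.22, 9.40 and 9.64 to 10.50, 11.38, 11.07 and 10.78 (1.56 ± 0.12). PCDH12, a protocadherin of endothelial junctions, rose from 9.25, 8.97, 9.54 and 9.85 to 9.96, 11.02, 11.40 and 10.86 (1.41 ± 0.11). The fifth gene, PRND, a prion protein relative, fell outside the naming rule because it was well above background in 5 of the 8 channels. It was called at a mean change of 1.67, but rose by 2.64 and 2.92 in the animals that went to Cy5 and by 0.36 and 0.77 in those that went to Cy3, and neither PRND nor PCDH12 was called without the dye term.

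The restricted cattle on the same slides give a second reading of these genes. For 9 of the 11 genes that fell, all 4 growth channels at time 0 were above all 4 restricted channels at time 0, which was so for 4.28% of all genes while 4.09% lay below, and for none of the 11 at time 1. TNFRSF12A, for example, was 8.73 to 10.35 in restricted cattle at time 0 and 9.54 to 10.38 at time 1, and PTX3 was 6.89 to 8.20 and 7.39 to 8.94. For 4 of the 5 genes that rose, all growth channels were above all restricted channels at time 1, against 12.5% of all genes. LUM was 9.38 to 11.55 in restricted cattle at time 0 and 9.55 to 10.57 at time 1. These counts use the channels on which the genes were called and are a description.

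At diet time 2 only RG166 and RG208 had growth channels, on 2 arrays each and on another slide. The time 2 value was nearer to the animal's time 1 value than to its time 0 value for 9 of the 16 genes in RG166 and for 10 in RG208. TNFRSF12A was 9.80 and 11.10 at time 2 in these animals and PTX3 was 8.22 and 8.05, whereas RRAD was 15.86 and 16.43. LUM was 10.46 and 11.69.

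The immediate early list had the lowest median of the 41 lists. Of its 27 tested genes, NR4A3 and MAFF fell, none rose, and 17 had an unadjusted p under 0.05 with a lower value at time 1, against the 8.44% of all genes given above. Its median change was -1.11, with -0.58 in RG166, -0.91 in RG604, -1.66 in RG157 and -1.29 in RG208, while the median of all genes was 0.03. FOS, a subunit of the AP-1 transcription factor, was 12.81, 17.09, 16.48 and 14.76 at time 0 and 10.28, 13.27, 10.13 and 9.10 at time 1. The drop was over 2.5 in every animal but ranged widely, and the mean of -4.59 ± 0.64 did not pass the test (limma adjusted p = 0.074). ATF3, a stress-induced repressor, was 13.52, 17.54, 16.26 and 16.56 at time 0 and 11.39, 15.38, 11.63 and 10.78 at time 1 (-3.67 ± 0.70, limma adjusted p = 0.097). EGR1, a zinc finger transcription factor, was 12.15, 14.84, 16.93 and 14.95 and then 11.36, 12.96, 10.95 and 10.81 (-3.19 ± 0.84, limma adjusted p = 0.139). RG166 was the lowest of the 4 animals at time 0 for FOS, ATF3 and EGR1, and RG604 the highest at time 1.

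IER5, an early gene that acts on heat shock factor, was 14.85, 16.81, 16.97 and 15.72 at time 0 and 12.51, 14.83, 13.85 and 12.98 at time 1, without overlap (-2.54 ± 0.21, limma adjusted p = 0.0509). CCN1, a secreted matrix protein, and MYC, a growth-promoting transcription factor, also had no overlap, with mean changes of -1.99 (limma adjusted p = 0.081) and -1.69 (limma adjusted p = 0.096). JUNB, the partner of FOS, had -2.05 and DUSP1, a phosphatase that shuts off MAP kinases, had -1.11, with limma adjusted p = 0.096 and 0.063. The members with values above 0 were NR4A2, EGR2, IER3 and GADD45A, at 0.21 to 0.65, and none had an unadjusted p under 0.05. In restricted cattle the median of the list changed by 0.20. Growth channels were all above restricted channels at time 0 for 12 of the 27 genes, against 4.28% of all genes. At time 1 they were above for 1 of the 27 and below for 1, against 12.5% and 12.4% of all genes. FOS was 10.68 to 11.81 in restricted cattle at time 0, below every growth animal at that time.

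**Figure D2:**
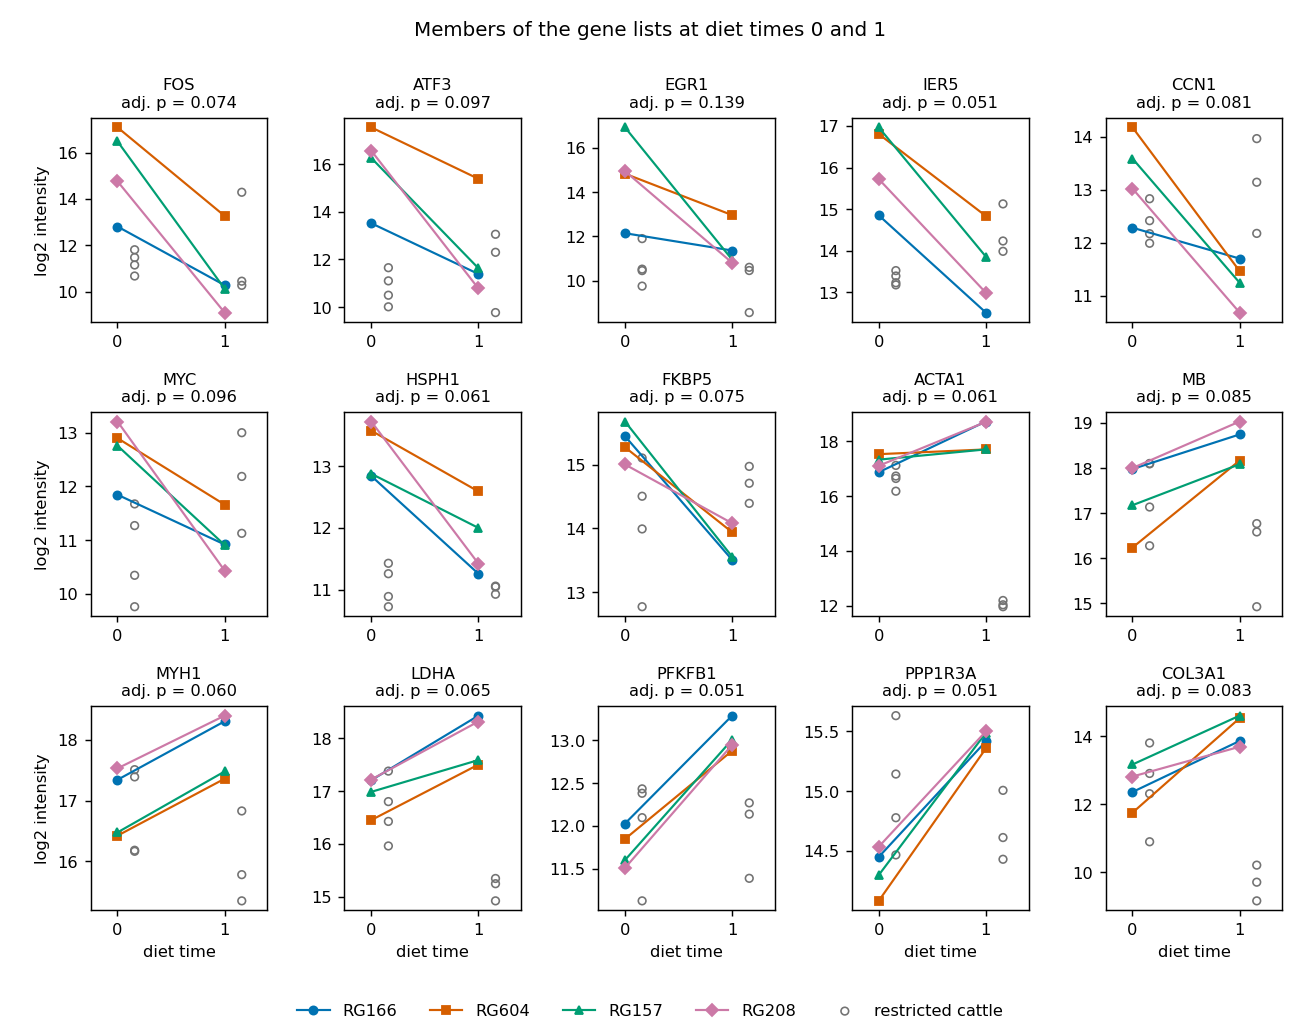
Normalised log2 intensity (y axis) at diet times 0 and 1 (x axis) of 15 list members, with a line per growth animal, grey circles for restricted cattle and the limma adjusted p of the growth change. IER5 at time 0 lies between 14.85 and 16.97 in growth cattle and between 13.17 and 13.52 in restricted cattle. ACTA1 at time 1 lies between 17.71 and 18.73 in growth and between 11.97 and 12.19 in restricted cattle.

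Heat shock proteins and glucocorticoid responsive genes were also lower at time 1, but no member passed the test. In the heat shock list, 12 of 26 genes had an unadjusted p under 0.05 and a lower value, none a higher one, and the median was -0.33. By animal it was -0.25 in RG166, -0.16 in RG604, -0.11 in RG157 and -0.62 in RG208. HSPH1, a large chaperone of the HSP110 class, was 12.84, 13.58, 12.88 and 13.72 at time 0 and 11.26, 12.59, 12.00 and 11.42 at time 1 (-1.44 ± 0.15, limma adjusted p = 0.061). All 4 values at time 0 were above all 4 at time 1. CRYAB, the small heat shock protein that guards desmin and titin, was 16.41 to 17.33 and then 15.52 to 16.23, with a mean change of -1.0 ± 0.14 (limma adjusted p = 0.075). For 13 of the 26 genes the growth channels lay above all restricted channels at time 0, against 4.28% of all genes, and for none below. At time 1 they lay above for 5 and below for 2, against 12.5% and 12.4% of all genes.

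In the glucocorticoid list 12 of 22 genes had an unadjusted p under 0.05 with a lower value and 3 with a higher one, and the median was -0.55, between -0.77 and -0.39 in the 4 animals. FKBP5, a receptor co-chaperone and direct target of the glucocorticoid receptor, was 15.44, 15.27, 15.68 and 15.00 at time 0 and 13.51, 13.94, 13.56 and 14.08 at time 1. The times did not overlap (-1.58 ± 0.22, limma adjusted p = 0.075). GLUL, glutamine synthetase, had -1.20 without overlap (limma adjusted p = 0.078), and CDKN1A, an inhibitor of the cell cycle, had -1.93 (limma adjusted p = 0.059). MT2A, a metallothionein, had -1.57 (limma adjusted p = 0.101), but metallothioneins resemble each other closely and a probe may read several. LCN2, DDIT4 and ANGPTL4 were the 3 members with higher values at an unadjusted p under 0.05, at 0.32 to 0.43. Of the 22 genes 6 had a positive change and 16 a negative one.

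Neutrophil markers were lower at time 1 as well, whereas the marker medians were positive for macrophages (0.34), endothelium (0.31), smooth muscle and pericytes (0.29), T and NK cells (0.25) and fibroblasts (0.23). Fibroblasts and macrophages were mixed. The fibroblast median was 0.53 in RG166, 1.48 in RG604, -0.02 in RG157 and -0.28 in RG208, and 3 of its 8 markers had a negative change. The macrophage median was -0.32 in RG166 and 0.34 to 0.40 in the other animals, and 4 of its 10 markers had a negative change. Of the neutrophil markers 6 were tested, all had a negative change and 5 an unadjusted p under 0.05. S100A9, a subunit of calprotectin, was 8.60, 8.85, 8.12 and 10.21 at time 0 and 6.41, 7.72, 7.02 and 7.19 at time 1 (-1.86 ± 0.16, limma adjusted p = 0.051). Its partner S100A8 had -1.63 ± 0.15 (limma adjusted p = 0.051), and both were lower in restricted cattle too, with mean changes of -0.88 and -0.80. Both were well above background in 7 of the 8 growth channels, with low means of 7.09 and 7.24 at time 1. Their changes split with the dye. S100A9 had a mean of -2.60 in the animals that went to Cy3 and -1.11 in those that went to Cy5, and S100A8 had -2.32 and -0.94. The SDs of the 4 changes were 0.92 and 0.85. The mean log2 intensity of the 6 markers was 8.24 to 9.31 in the animals at time 0 and 7.41 to 8.10 at time 1, without overlap between the times, and the part of this in the other changes was not tested. Of the 10 macrophage markers CD163, a haemoglobin scavenger receptor, had -0.74 (limma adjusted p = 0.073) and 4 had an unadjusted p under 0.05 with a higher value. Of the 3 red blood cell genes the globins HBA and HBB had -0.77 and -0.75 and differed in sign between animals, while AHSP, the chaperone of alpha globin, had 0.44 without overlap (limma adjusted p = 0.111).

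**Figure D3:**
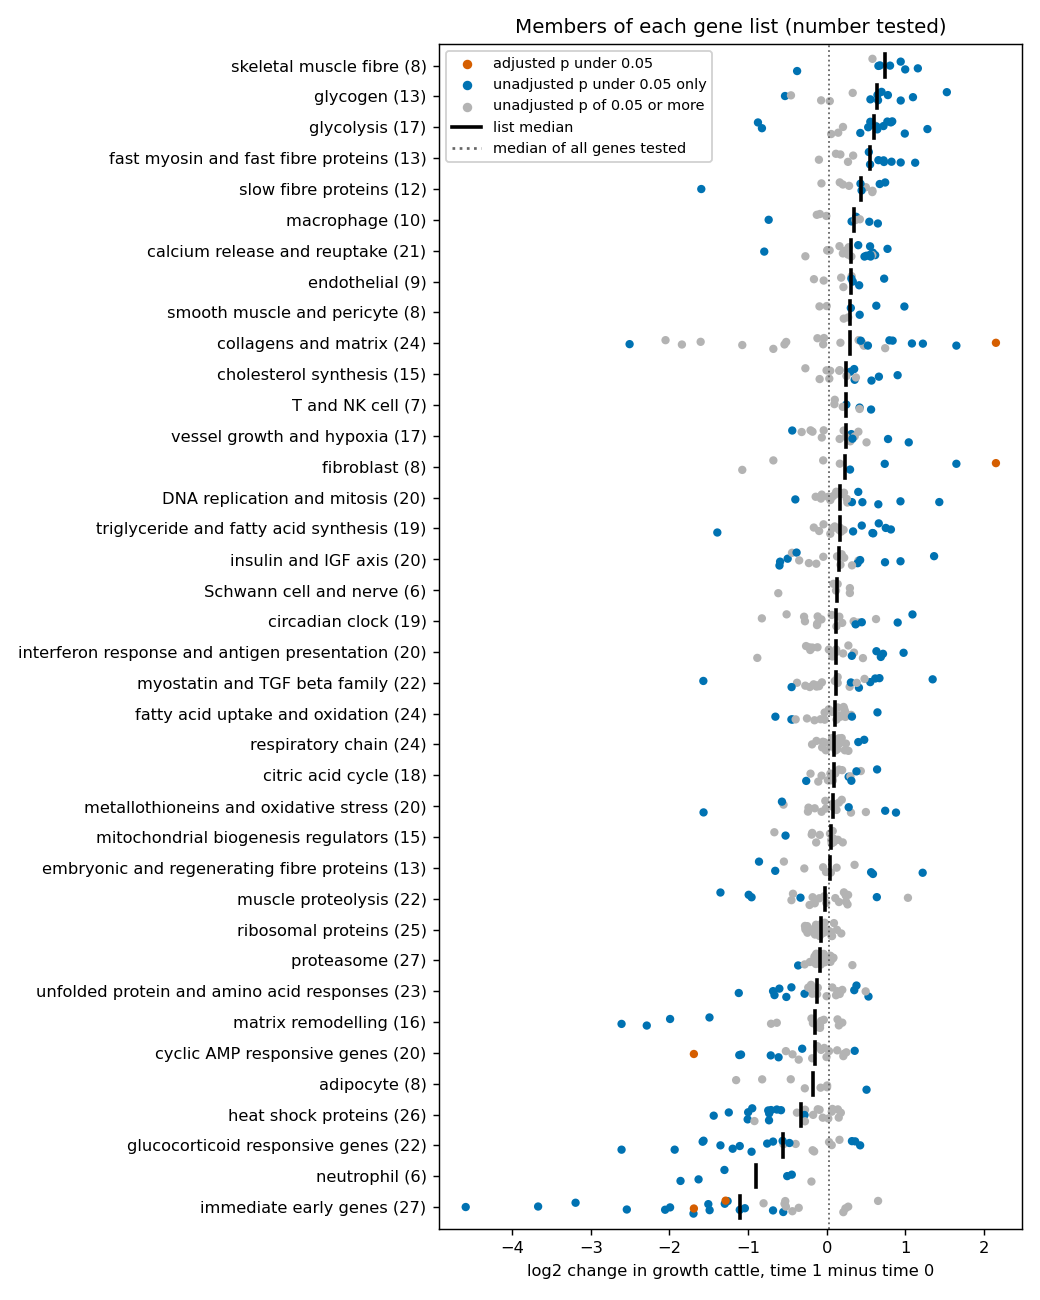
Log2 change from time 0 to time 1 in growth cattle (x axis) of each member of the 38 lists with 6 or more genes tested (y axis, number in parentheses). Orange points have an adjusted p under 0.05, blue points only an unadjusted one, black bars are list medians and the dotted line is the median of all genes at 0.03. The immediate early list has the lowest median, -1.11, and the muscle fibre markers the highest, 0.74.

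Genes of the contractile and glycolytic machinery lay on the other side, although none passed the test. Among fast fibre proteins 8 of 13 had an unadjusted p under 0.05 with a higher value and none with a lower one, and the list median was 0.55, between 0.53 and 0.72 in the animals. MYH1, the fast IIx myosin heavy chain, was 17.34, 16.42, 16.48 and 17.53 at time 0 and 18.30, 17.36, 17.48 and 18.40 at time 1. Each animal gained 0.87 to 1.00, but the animals lay far enough apart for the 2 times to overlap (0.94 ± 0.10, limma adjusted p = 0.060). Myosin heavy chain genes share much sequence, so the probe may read more than 1 of them. ACTA1, skeletal actin, was 16.88, 17.53, 17.33 and 17.11 at time 0 and 18.73, 17.71, 17.71 and 18.71 at time 1 (1.00 ± 0.11, limma adjusted p = 0.061). Its change was 1.73 in the mean of the 2 animals that went to Cy3 and 0.27 in the 2 that went to Cy5.

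The slow fibre list was mixed, with 4 of 12 genes higher and 1 lower at an unadjusted p under 0.05. MYH7, the slow myosin heavy chain, had 0.58 ± 0.24 (limma adjusted p = 0.251). CSRP3, the muscle LIM protein of the Z-disc, had -1.59 ± 0.24 without overlap (limma adjusted p = 0.082), the opposite direction to TNNT1, slow troponin T, at 0.74. MB, myoglobin, had 1.16 ± 0.19 (limma adjusted p = 0.085), with all time 1 values above all time 0 values. DES, desmin of the intermediate filaments, was the one fibre marker of 8 with a negative change, at -0.38.

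In glycolysis, 11 of 17 genes had an unadjusted p under 0.05 with a higher value and 2 with a lower one, and the median was 0.61. The members with values above 0.9 were LDHA, lactate dehydrogenase, at 0.99 ± 0.12 (limma adjusted p = 0.065) and PFKFB1, which sets the level of the activator of phosphofructokinase, at 1.28 ± 0.12 (limma adjusted p = 0.051). PFKFB1 was 12.03, 11.85, 11.60 and 11.51 at time 0 and 13.29, 12.88, 13.01 and 12.95 at time 1, with no overlap and a similar step in each animal. The 2 glucose transporters of the list went the other way, SLC2A4, the insulin-dependent carrier, at -0.87 (limma adjusted p = 0.091) and SLC2A1 at -0.82 (limma adjusted p = 0.119), both without overlap. In the glycogen list, 8 of 13 genes were higher and 1 lower at an unadjusted p under 0.05. The median of that list was 0.80 in RG166, -0.05 in RG604, 0.54 in RG157 and 0.60 in RG208. PPP1R3A, the subunit that anchors protein phosphatase 1 to glycogen, was 14.45, 14.08, 14.30 and 14.53 and then 15.42, 15.36, 15.49 and 15.50 (1.10 ± 0.10, limma adjusted p = 0.051), and STBD1, a glycogen-binding protein, had 1.53 ± 0.24 (limma adjusted p = 0.085). PYGM, muscle glycogen phosphorylase, had 0.94 ± 0.15 (limma adjusted p = 0.084).

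The size of these shifts depended on the scaling. With each channel centred on its median and no loess, the median of all genes moved to -0.09, that of glycolysis to 0.12, of fast fibre proteins to 0.16 and of glycogen to 0.17, and 1 of 17, 1 of 13 and 3 of 13 genes were higher and 3, 1 and 2 lower at an unadjusted p under 0.05. Of all genes 4.61% were then higher and 13.2% lower at that p, in place of 13.5% and 8.44%. With the Feature Extraction signals the 3 medians were 0.01, 0.03 and 0.15 beside -0.09 for all genes, a shift of more than 0.1 from the main scaling. The immediate early, heat shock and glucocorticoid lists kept medians of -1.41, -0.62 and -0.81 under median centring and of -1.50, -0.63 and -0.95 under Feature Extraction, with 23, 15 and 15 lower members at an unadjusted p under 0.05 in the first case, against the 13.2% of all genes under that scaling. The slow fibre median was 0.44 with the main scaling, 0.04 under median centring and -0.05 under Feature Extraction, and the insulin and IGF median turned from 0.15 to -0.11 and -0.15.

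Mitochondrial and protein turnover lists depended on the scaling. With the main scaling the respiratory chain had 2 of 24 genes higher and none lower at an unadjusted p under 0.05, with a median of 0.10, and the citric acid cycle 4 of 18 higher and 1 lower, against 1 higher and 5 lower under both median centring and Feature Extraction signals. Of 25 ribosomal proteins none had an unadjusted p under 0.05 and of 27 proteasome subunits 1 did, with medians of -0.07 and -0.08. Under median centring without loess the medians were -0.56 for ribosomal proteins, -0.35 for the respiratory chain and -0.36 for the proteasome, and 20 of 25, 7 of 24 and 9 of 27 members were lower at an unadjusted p under 0.05, with 5 ribosomal proteins past the adjusted threshold. Under Feature Extraction signals the medians were -0.63, -0.38 and -0.35 with 20, 12 and 10 lower members, and under quantile normalization 6 ribosomal proteins were lower. In the list of muscle proteolysis 1 of 22 was higher and 4 were lower with the main scaling, and 2 were higher and 8 lower under median centring. FBXO32, the ubiquitin ligase atrogin-1, was 15.04, 14.53, 14.39 and 13.28 at time 0 and 14.64, 15.52, 15.84 and 15.39 at time 1, higher in 3 of 4 animals (1.03 ± 0.41, limma adjusted p = 0.236), and TRIM63, the ligase MuRF1, had -0.45 (limma adjusted p = 0.312).

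Growth factor lists held changes in both directions. In the insulin and IGF list 5 of 20 genes were higher and 4 lower at an unadjusted p under 0.05, against 13.5% and 8.44% of all genes. GRB10, an adaptor that inhibits the insulin receptor, was 10.34, 10.19, 10.14 and 9.94 at time 0 and 11.64, 11.78, 11.03 and 11.64 at time 1, without overlap (1.37 ± 0.16, limma adjusted p = 0.063). IGF1 itself had 0.74 ± 0.18 and no overlap (limma adjusted p = 0.126), and IGFBP5, a binding protein of IGFs, had 0.94 (limma adjusted p = 0.122). In the myostatin list 6 of 22 were higher and 2 lower at that p, and the lower count was near the share of all genes. MSTN, myostatin, the inhibitor of muscle growth, was 7.55, 7.31, 7.38 and 7.95 at time 0 and 9.46, 7.93, 9.53 and 8.65 at time 1 (1.35 ± 0.32, limma adjusted p = 0.125), and FSTL3, an antagonist of myostatin and activin, had -1.57 without overlap (limma adjusted p = 0.136).

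Several smaller lists held single genes near the threshold. In DNA replication and mitosis 6 of 20 genes were higher and 1 lower at an unadjusted p under 0.05, with RRM2, a subunit of ribonucleotide reductase, at 0.94 ± 0.11 (limma adjusted p = 0.061). CHRNG, the fetal subunit of the acetylcholine receptor, was 6.79 to 7.11 at time 0 and 7.87 to 8.46 at time 1 (1.22 ± 0.16, limma adjusted p = 0.069). CHRNG was well above background in 6 of the 8 growth channels and RRM2 in 5. Their mean values at time 0, 6.90 and 6.91, were near the background, which limits what their changes show. APLN, the vessel peptide apelin, had 1.04 ± 0.10 (limma adjusted p = 0.055), and CDH5, the cadherin of endothelial junctions, had 0.73 ± 0.09 (limma adjusted p = 0.070). Both split with the dye change of the animals. CDH5 rose by 0.09 and 0.15 in RG166 and RG208, which went to Cy3. It rose by 1.34 and 1.35 in RG604 and RG157, which went to Cy5, and its times overlapped. The changes of APLN were 0.55 and 0.75 against 1.45 and 1.43 in the same order. Of the endothelial markers 4 of 9 were higher at an unadjusted p under 0.05 and none lower, which became 1 and 0 under both median centring and Feature Extraction signals. The list median was 0.09 in RG166, 0.48 in RG604, 0.05 in RG157 and 0.15 in RG208. Mean log2 intensities of the markers were 9.96 to 10.08 at time 0 and 10.08 to 10.57 at time 1, and the part of this in PLXDC1 and PCDH12 was not tested. LPIN1, a phosphatidate phosphatase of fat synthesis, had -1.39 without overlap (limma adjusted p = 0.078), while 7 of the other 18 genes of its list were higher at an unadjusted p under 0.05. RCAN1, the calcineurin inhibitor, had -0.79 (limma adjusted p = 0.069) in a calcium list with 9 of 21 genes higher and 1 lower at an unadjusted p under 0.05, which became 2 and 2 under median centring and 3 and 3 under Feature Extraction signals.

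Among connective tissue and fat genes the direction of change often differed between animals. In the list of collagens and matrix LUM rose, and 8 of 24 genes were higher and 1 lower at an unadjusted p under 0.05. Of the 24, 6 were higher at time 1 without overlap and none lower, against 7.45% and 3.66% of all genes. The list median was 0.42 in RG166, 1.47 in RG604, -0.30 in RG157 and -0.43 in RG208. Under median centring 7 were higher and 8 lower at an unadjusted p under 0.05, beside 4.61% and 13.2% of all genes. Feature Extraction signals gave 7 and 4, beside 12.2% and 16.3%, so the excess of higher members depended on the scaling. COL3A1, fibrillar collagen III, was 12.36, 11.75, 13.17 and 12.82 at time 0 and 13.87, 14.54, 14.61 and 13.70 at time 1 (1.65 ± 0.25, limma adjusted p = 0.083). COL1A1, collagen I, was 13.67, 15.56, 17.32 and 15.76 and then 14.59, 16.12, 14.58 and 14.31, higher in 2 animals and lower in 2 (-0.68 ± 0.65, limma adjusted p = 0.573). The adipocyte markers had medians of -1.48 in RG166, 2.12 in RG604, -0.61 in RG157 and -0.92 in RG208, and FABP4, the fatty acid carrier of fat cells, differed in sign between animals as well, with -3.61, 2.48, -1.70 and -1.78 in the same order (limma adjusted p = 0.405).

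Of 6 genes known from tendon and cartilage or grouped with them, all chosen after their values were seen, 5 were higher in RG604 alone. COMP, cartilage oligomeric matrix protein, was 11.07, 10.99, 14.02 and 13.07 at time 0 and 8.31, 12.44, 6.96 and 9.03 at time 1, lower in RG166, RG157 and RG208 and higher in RG604. TNMD, tenomodulin of tendon cells, was 11.84, 11.67, 14.80 and 14.06 and then 9.70, 14.28, 9.58 and 10.44. CILP2, FMOD and CHAD, matrix proteins of cartilage and tendon, had the same signs in the same animals. ANGPTL7, a secreted angiopoietin-like protein put in the same group, did not share the split and was lower in all 4 animals, with -1.92 in RG166, -0.54 in RG604, -7.60 in RG157 and -6.35 in RG208 (limma adjusted p = 0.178). Their mean changes of -3.11 ± 1.36 for COMP and -2.09 ± 1.26 for TNMD did not pass the test (limma adjusted p = 0.266 and 0.384). In restricted cattle COMP was 12.24 in RL27, 9.77 in RL24, 10.61 in RL322 and 13.64 in RL671 at time 0 and 6.58 to 8.31 at time 1. The changes of RG604 correlated least with those of the other animals across genes (r = 0.15 to 0.26, against 0.34 to 0.61 among the other 3), where genes are not independent replicates.

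**Figure D4:**
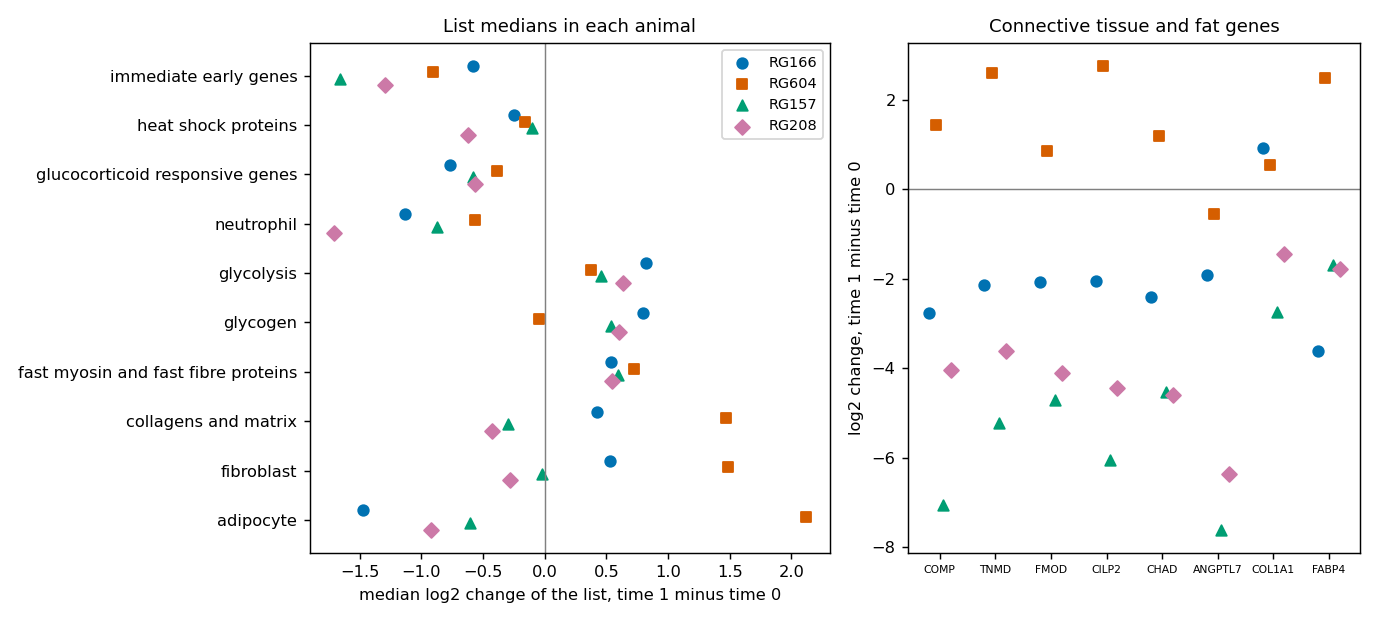
Left, median log2 change from time 0 to time 1 (x axis) of 10 gene and marker lists (y axis) in each growth animal. Right, log2 change (y axis) of 8 connective tissue and fat genes (x axis) chosen after their values were seen, in each animal, where RG604 is above 0 for 7 and below 0 for ANGPTL7. The immediate early median is below 0 in all 4 animals, and the adipocyte median is 2.12 in RG604 and below 0 in the other 3.

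Both diets lay on every array, so a slide effect shared by both channels cancels when the change in growth cattle is set against that in restricted cattle. The change differed for 378 of 13710 genes at an adjusted p under 0.05 in limma, with 209 (1.52%) where the growth change was above the restricted change and 169 (1.23%) where it was below. Median centring without loess gave 116 and 189. The fit takes the 8 arrays as separate samples and does not pair the animals that recur at both times. With array position as replicate block 426 genes were called, and 203 of the 378 were among them. Both arrays of RL24 at time 1 hold the same animal, so RL24 counts for 2 of 4 arrays there. The p-values of the main fit allow for neither. The restricted channels of the 2 RL24 arrays differed by over 1 in 8 genes, against 634 genes between the other restricted arrays of time 1. In 198 of the 209 genes the value was higher at time 1 in growth and lower in restricted cattle, and in 138 of those the restricted change was the larger. In 153 of the 169 the growth value was lower at time 1, and the restricted change was the larger in 112. Without the time 1 array of RG157 and RL24, 3 genes were called, without that of RG604 and RL24 13 were, and with the restricted animal as a random block 2915 were, 378 of them shared. Without both arrays of any 1 of RG166, RG604, RG157 or RG208 limma called ACTA1 alone, with 1663, 2015, 2466 and 2643 genes at an unadjusted p under 0.05.

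ACTA1 had the largest difference above 0. It was 12.04 in RL27, 11.97 in RL24 and 12.19 in RL671 at time 1, after 17.12, 16.18 and 16.65 in these animals at time 0, whereas growth cattle held 17.71 to 18.73 at time 1. The growth change minus the restricted change was 5.63 ± 0.23 (limma adjusted p = 0.00036). MYL3, the slow essential myosin light chain, had -0.07 in growth cattle and -4.06 in restricted cattle, a difference of 3.99 ± 0.45 (limma adjusted p = 0.018). COL3A1 and FN1, fibronectin, differed by 4.44 ± 0.77 and 4.05 ± 0.80, and METTL21E, a muscle methyltransferase, by 3.16 ± 0.33 (limma adjusted p = 0.041, 0.049 and 0.018). In these 5 genes the restricted change lay between -4.63 (ACTA1) and -2.14 (METTL21E) and the growth change between -0.07 (MYL3) and 1.65 (COL3A1), and none of the 5 was called in growth cattle alone. LDHA and MB, named above, differed by 2.53 and 2.76 (limma adjusted p = 0.039 and 0.029).

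Below 0, FOS had the largest difference among the named genes, -5.64 ± 0.80 (limma adjusted p = 0.028), with -4.59 in growth and 1.05 in restricted cattle. The restricted value at time 1 was 14.29 in RL24 and 10.45 and 10.27 in RL27 and RL671, so the mean restricted change rests on RL24, which was on 2 arrays. RRAD fell in growth cattle and was 14.04, 15.72 and 13.85 at time 0 and 16.14, 17.39 and 16.41 at time 1 in RL27, RL24 and RL671, a difference of -4.16 ± 0.38 (limma adjusted p = 0.012). All 3 restricted animals sampled at both times were higher at time 1, and all 4 growth animals were lower. IER5 differed by -3.83 ± 0.51 and NOD2 by -3.66 ± 0.66 (limma adjusted p = 0.027 and 0.042). CISH, an inhibitor of cytokine and growth hormone signals, differed by -3.93 ± 0.70 (limma adjusted p = 0.041) mostly through the restricted cattle, with 9.75 to 10.44 at time 0 and 13.38 to 13.50 at time 1, whereas in growth cattle it was 13.07, 10.92, 10.74 and 14.80 and then 11.83, 12.04, 11.15 and 12.54.

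Of the 16 genes called in growth cattle, PTX3, RRAD, NOD2, PLXDC1 and PCDH12 were also called for the difference between the diets, each in the same direction. For TNFRSF12A the difference was -3.15 ± 0.75 (limma adjusted p = 0.065), for ANKRD2 -1.98 ± 0.78 (limma adjusted p = 0.178) and for LUM 2.44 ± 0.64 (limma adjusted p = 0.077). By list, the difference was called for 5 of 27 immediate early genes, all below 0, for 3 of 26 heat shock proteins, all below 0, for 4 of 17 glycolysis genes, all above 0, and for 4 of 24 collagen and matrix genes, all above 0, against 1.23% and 1.52% of all genes in these directions. The growth and restricted channels of an array share a hybridization, so these values are not independent of the growth changes above.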

How the data were processed

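LTL muscle RNA was labelled with Cy3 or Cy5 and hybridised by the authors to Agilent arrays. Per the labels and file headers, Agilent Feature Extraction (9.5.1 in the submitters' processing notes) gave the deposited mean intensity, local background intensity, flags and log10 of the red to green ratio for every spot. The authors' mixed-model values were not used here.

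Background was corrected by normexp (offset 50) in limma 3.58.1 (R 4.3.3), followed by loess within arrays and Aquantile between the 12 diet arrays. Control and outlier spots were left out, and spots of a probe and probes of a gene were averaged. Probes had to exceed background clearly, by the Feature Extraction flag, in 4 or more of the 8 growth channels. Of 21475 probes, 16661 were matched to RefSeq genes of ARS-UCD2.0, some through symbols in the file's descriptions, and the others kept the file's name. The growth change was fitted on the 8 channels with animal and dye (2 residual degrees of freedom), and the difference between diets on the log2 ratios of the 8 arrays. Pairing came from animal codes. Deviations from the time means correlated at 0.47, 0.07, 0.10 and 0.21 within RG166, RG604, RG157 and RG208, and at most at -0.01, 0.06, 0.08 and 0.25 with another animal, so RG208 was closer to another animal than to itself. The labels do not say that samples of an animal came from separate extractions. The methods were tested on simulated data. The growth fit recovered 97% of 100 genes changed by 1 and 99% of 100 changed by 2 (log2), beside 23 false calls. The fit of the difference between diets recovered 58% and 88%, beside 7 false calls. These rates hold for the simulated data alone.

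Named genes were, for the growth change, up to 12 rises and 12 falls among called genes with 1 sign in 4 animals and detection in 8 channels, for the difference between diets the 5 largest in each direction, up to 3 genes detected at 1 time alone, and the called or defining members of lists. List members that are neither called nor defining, among them those near the threshold, and the tendon and cartilage genes and PRND were named after their values were seen. The channels and lists were chosen with earlier results of these data known. The number of arrays limits precision. No probe sequences are shown, as their place in the transcripts was not analysed here. The values of 1 list member are not reported here.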

Additional observations from a re-analysis of the deposited data

Results flagged for a closer look

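For 11 of 222 sets of 4 values, 1 animal lay far from the other 3 by Dixon's ratio, and chance alone marks about 1 set in 20. At time 1 RG604 stood apart and high for NR4A3 (9.82), MAFF (14.22), COL1A1 (16.12), FMOD (14.40), CILP2 (13.02) and CDKN1A (13.09), and at time 0 for MAFF (15.50). RG208 stood apart and high for NOD2 at time 0 (10.31) and at time 1 (9.13). For MYH7, RG157 was low at time 0 (16.41) and RG166 high at time 1 (18.19).

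The change differed between growth and restricted cattle for 378 genes by limma. Among genes named in the report, the growth change minus the restricted change was above 0 for ACTA1 (5.63), COL3A1 (4.44), FN1 (4.05), MYL3 (3.99), METTL21E (3.16), MB (2.76), PLXDC1 (2.73), TOP2A (2.61), LDHA (2.53), RRM2 (2.08), PCDH12 (1.93) and APLN (1.61). It was below 0 for FOS (-5.64), RRAD (-4.16), CISH (-3.93), IER5 (-3.83), NOD2 (-3.66), PTX3 (-3.32), MYC (-3.05), CCN1 (-2.95) and CRYAB (-1.34).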

How the results depend on the processing

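The number of genes called in growth cattle was 16 and became 119 with background subtraction, 728 with median centring and no loess, 79 with quantile normalization, 703 with Feature Extraction signals, 1 with no filter on dim probes, 66 with detection in all 8 channels, 60 with no dye term, 713 with all 24 diet channels in 1 fit and 522 at an adjusted p of 0.10. With no replicate block, so without the pairing by animal, it was 40. Leaving out each animal gave 0 to 14. All 16 were called under background subtraction, median centring, quantile normalization, Feature Extraction signals and the brightest probe. For the difference between diets, 378 genes were called, and 426 with array position as replicate block, 203 of them shared with the 378. Without the time 1 array of RG157 and RL24, 3 genes were called. By alternatives chosen after seeing the data, 13 were called without that of RG604 and RL24. By another, 2915 were called with the restricted animal as random block (correlation 0.47). Leaving out each growth animal gave 1 each time. Of the named genes' growth changes, MYH7 turned to -0.12 with Feature Extraction signals and COL1A1 to 0.15 without RG157, with a range of -1.50 to 0.15 when each animal was left out. Calls near the threshold rest on 2 residual degrees of freedom, and dim genes are limited by their signal over background, with a median signal 2.40 to 5.90 times the background in these channels.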

Other observations

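At time 1, 83 genes were well above background in all 4 growth channels and at time 0 in none, and no gene had the reverse pattern. These genes passed the filter on dim probes only through the time 1 channels, so the count is a description and supports no test. The share of spots well above background was also lower at time 0 in each dye, as given in the report, and its part in this count was not tested. The 3 named genes with the largest bound were MELK, a kinase of dividing cells, CNDP1, carnosine dipeptidase, and KRT25, a keratin, and none of them was called in limma.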
